A study of Homo sapiens with 16 samples.

Results

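Polysomal RNA of MOLM13 cells with a knockout of YBX1 was compared with polysomal RNA of control cells, using the 8 of 16 libraries of the series that were made from polysomal fractions. The 8 members were chosen by their labels, 4 with a guide against YBX1 (sgYBX1) and 4 with a non-targeting guide (sgLUC), and the other 8 libraries hold total RNA of the same kinds of cells. MOLM13 is an established acute myeloid leukemia (AML) line of monocytic type that carries a KMT2A fusion gene, and every group expressed Cas9 from a lentivirus and was selected with puromycin and blasticidin. All cells were lysed on day 14 after transduction. For the polysomal libraries, cycloheximide was added to hold ribosomes on the mRNA, lysates were separated on a sucrose gradient, the heavy fractions were pooled, and polyadenylated RNA was sequenced. The knockout is a pool of cells with 1 guide (sgRNA1) in 1 cell line rather than a clone, and the study describes 4 replicate cultures for the fractionation, so p-values measure the spread between cultures of this line. Because the RNA is from bulk cells, less RNA per edited cell and a different share of edited cells cannot be told apart.

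YBX1 is a cold-shock domain protein that coats mRNAs in the cytoplasm and takes part in their packaging, stability and translation. An mRNA that is translated by several ribosomes at once sediments with the heavy fractions, and a long coding sequence has room for more ribosomes than a short one. The level of an mRNA in polysomal RNA therefore depends both on how much of it the cell holds and on the share of it that is loaded with several ribosomes, and it is measured relative to all other mRNAs in the same fractions.

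The 8 libraries held between 38916786 and 55380275 counts. Levels are given as CPM, the usual scale of counts relative to the library total, here after scaling of the totals by trimmed means of M values (TMM), and changes are log2 fold changes of sgYBX1 against sgLUC ± SE from edgeR's quasi-likelihood test with Benjamini-Hochberg adjustment over 11742 genes. The first principal component held 33.0% of the variance and separated the guides, and sgLUC replicate 4 lay furthest out on it. The biological coefficient of variation was 0.211 among the sgLUC libraries and 0.143 among the sgYBX1 libraries. No library was a copy of another, since the smallest difference between replicates was 12.6 times sampling noise. All 10 markers of a monocytic AML line were detected, with a summed level of 707 to 801 CPM in the sgLUC libraries and 494 to 553 CPM in the sgYBX1 libraries. Of these markers 2 fell, LYZ and MPO, beside 10.1% falls among all tested genes. Of 8 erythroid and megakaryocyte markers and 6 fibroblast and endothelial markers, 1 of each kind passed the filter on low counts. Neither stood above 0.7 CPM in any library. Of 5 T cell markers 1 passed, CD3D, at 2.4 to 4.5 CPM with sgLUC and 0.9 to 1.9 CPM with sgYBX1. The 2 of 5 epithelial markers that passed summed to 17.2 to 21 and 24.1 to 31.0 CPM. Markers that did not pass are not in these values. The part of these shifts in the results was not tested.

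YBX1, the targeted gene (chr1:42682418-42703805 in GRCh38), was examined before all others as a check of the labels. Its polysomal mRNA stood at 697, 659, 565 and 588 CPM in sgLUC replicates 1 to 4 and at 466, 481, 463 and 451 CPM in sgYBX1 replicates 1 to 4. Every sgYBX1 library lay below every sgLUC library, in the direction that the labels give, and 74.2% of the control level remained. The means were 627 ± 61.7 and 465 ± 12.6 CPM (SD, n = 4), a log2 change of -0.43 ± 0.11 (adjusted p = 0.00592). The exact two-sided permutation test of the 8 values gave p = 0.0286, the smallest that 4 against 4 allows. In total RNA the fall was larger, with a log2 change of -0.76 ± 0.03, and the polysomal change lay 0.34 above it (adjusted p = 0.00937 by limma voom). The counts of YBX1 mRNA do not measure YBX1 protein, and a guide that shifts the reading frame need not remove the mRNA.

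Across all expressed genes, 2651 changed at an adjusted p under 0.05, which is 22.6% of the 11742 tested. Of these, 1466 rose (12.5% of the genes tested) and 1185 fell (10.1%). The number of falls was 599 without sgLUC replicate 4, with 1179 rises, and 713 and 645 without sgYBX1 replicates 3 and 4, with 1149 and 1060 rises, and without sgYBX1 replicate 2 it was 782, with 1360 rises. These 4 libraries each moved the falls by more than 1.5 times. With a change of more than 1.5-fold, 1094 genes remained (9.32%), of which 707 rose (6.02%) and 387 fell (3.30%). The 4 libraries of the groups did not overlap in CPM for 2682 genes (22.8%). The median log2 change of all tested genes was -0.02. The balance of rises and falls rests on the scaling, since the 100 most counted genes took 28.6% to 29.7% of the counts in sgLUC libraries and 30.3% to 31.9% in sgYBX1 libraries. When library totals were used without TMM factors, the median of all genes moved by -0.16 to -0.19, and 934 genes rose and 2652 fell, so that 26.0% of 3586 calls were rises against 55.3% in the scaled data. The changes below are relative to the TMM scale, and no spike-in was available to set an absolute one.

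**Figure D1:**
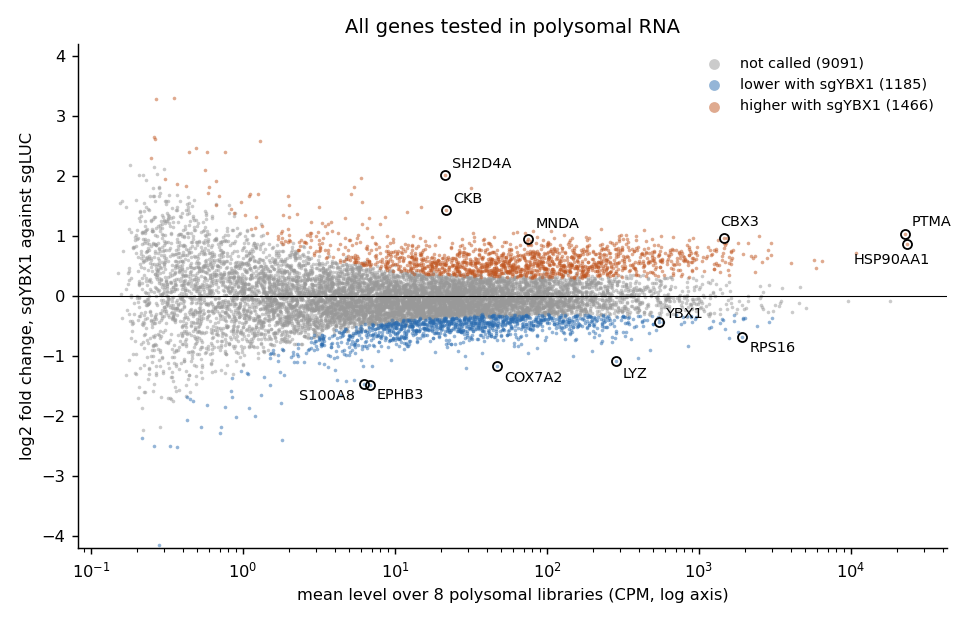
Log2 fold change of sgYBX1 against sgLUC in polysomal RNA for the 11742 tested genes (y axis) against the mean level in CPM over the 8 libraries (x axis, log scale), with genes that rose or fell at an adjusted p under 0.05 in colour and some genes labelled. The 1466 rises and 1185 falls are spread over the range of levels, and PTMA and HSP90AA1 are risen genes at the upper end of it.

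Some of the most abundant polysomal mRNAs rose. PTMA, which encodes the small acidic nuclear protein prothymosin alpha (chr2:231708525-231713551), stood at 11058, 17716, 19270 and 11016 CPM in the sgLUC libraries and at 27002, 28286, 32745 and 33427 CPM in the sgYBX1 libraries. The groups did not overlap, and the log2 change was 1.04 ± 0.15 (adjusted p = 2.77e-05). HSP90AA1, the stress-inducible cytosolic HSP90 chaperone (chr14:102080742-102139749), stood at 13690, 15066, 21995 and 15699 CPM against 29759, 26186, 32469 and 33032 CPM. It rose by 0.87 ± 0.13 (adjusted p = 4.42e-05), and HSP90AB1, the constitutive form, rose by 0.72 ± 0.13 (adjusted p = 0.000191). EIF5B, the GTPase that joins the ribosomal subunits at the end of initiation (chr2:99337389-99401326), stood at 1531, 1998, 2835 and 1997 CPM against 3621, 3530, 4188 and 4152 CPM. Its log2 change was 0.89 ± 0.14 (adjusted p = 6.2e-05). ANP32B, an acidic histone chaperone (chr9:97983341-98015943), stood at 1339, 1675, 2206 and 1430 CPM against 3083, 2889, 3642 and 3696 CPM, a log2 change of 1.00 ± 0.14 (adjusted p = 1.79e-05). With HSP90AB1, the genes MTDH, DDX21, SPN and NUCKS1 complete the 8 most abundant rises, to which PTMA, HSP90AA1 and EIF5B belong and ANP32B does not, and they had log2 changes of 0.58, 0.77, 0.63 and 0.57. PTMA and HSP90AA1 have near-identical processed copies in the genome, so their counts are uncertain to the extent that such reads were split or dropped.

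These abundant rises share a feature that the comparison did not use, a high share of lysine and glutamate codons (AAA, AAG, GAA and GAG). Those codons made up 30.9% of the coding sequence of PTMA, 21.4% of HSP90AA1, 29.9% of EIF5B and 29.1% of ANP32B, against a median of 12.8% over all tested genes. SPN, the leukocyte surface sialophorin, was the exception at 8.50%. The stretch of 10 codons with the most of them in each gene, the first where several tie, is shown from the GENCODE v29 coding sequences of GRCh38, with lysine and glutamate codons in capitals. It lies at coding bases 238 to 267 in PTMA, 1087 to 1116 in HSP90AA1, 970 to 999 in EIF5B and 496 to 525 in ANP32B.
PTMA: GAAGAAGAGGAAGAAggtgggGAGGAAGAG
HSP90AA1: AAAGAAGAAGAAAAAGAAAAAGAAGAGAAA
EIF5B: GAAAAGGAAGAAAAAGAGAAAGAGAAGAAA
ANP32B: gatGAAGAGGAGGAGgacGAAGAAggaGAA
All 10 codons of the windows in HSP90AA1 and EIF5B encode lysine or glutamate, as do 8 of 10 in PTMA and 7 of 10 in ANP32B.

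Across genes, the change went with the share of these codons, mainly where it was above 16%. Genes that rose had a median share of 16.2%, genes that fell 12%, and genes that were not called 12.5%. Of the 850 tested genes in which such codons made up more than 20% of the coding sequence, 368 rose (43.3%) and 44 fell, with a median log2 change of 0.36. Of the 1385 genes with a share of up to 8%, 74 rose and 182 fell, with a median of -0.07. The classes between had medians of -0.08 (8% to 12%), -0.05 (12% to 16%) and 0.07 (16% to 20%), so there was little gradient below 16%. In total RNA the medians of the same 850 and 1385 genes were -0.01 and 0.02. Spearman's correlation between the share and the polysomal change was 0.175 across 11687 genes, and -0.0816 across 11412 genes in total RNA. Genes are not independent replicates, and both values share their libraries and base composition, so they are given as a description.

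The change also went with the length of the coding sequence. The median coding length was 1977 bases among genes that rose, 912 bases among genes that fell and 1410 bases among genes that were not called. Among the 948 genes with a coding sequence of up to 500 bases, 32 rose and 232 fell, and the median log2 change was -0.22. Among the 502 genes with more than 5000 bases, 162 rose and 5 fell, and the median was 0.30. The 5 classes of length between them followed in order, with medians of -0.11, -0.06, -0.01, 0.08 and 0.13. In total RNA the medians of the 7 classes lay between -0.04 and 0.02. Spearman's correlation with coding length was 0.258 in polysomal RNA and 0.0891 in total RNA, and 0.247 in polysomal RNA when the cytosolic and mitochondrial ribosomal protein and respiratory genes were left out. Genes that rose also had longer 3′ untranslated regions than genes that fell, with a median of 1329 against 539 bases, and a lower share of G or C at the last position of codons, 47.6% against 60.2%.

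Length and codon share were then combined. In genes with more than 20% lysine and glutamate codons, the median log2 change was -0.10 for the 140 genes of up to 500 coding bases, of which 12 rose and 27 fell. It was 0.22 for the 221 genes of 500 to 1000 bases and 0.71 for the 82 genes of 3000 to 5000 bases, of which 65 rose and 0 fell by the edgeR test. In genes with a share of 8% to 12%, the median went from -0.25 for 219 genes of up to 500 bases to 0.16 for 141 genes of more than 5000 bases. The median was higher at the larger share in each class of length, and it was higher in the longest class than in the shortest at both shares. At the larger share it was not higher in every class than in the one before, with 0.48 at 1000 to 1500 bases and 0.38 at 1500 to 2000 bases. No test was made of either feature apart from the other.

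**Figure D2:**
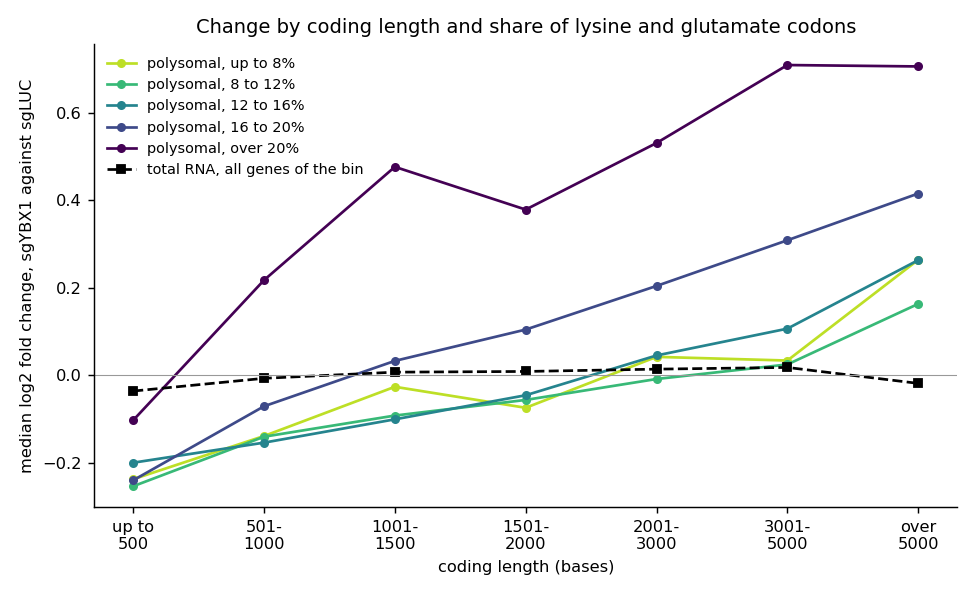
Median log2 fold change of sgYBX1 against sgLUC (y axis) by class of coding length in bases (x axis), with a solid line for each class of lysine and glutamate codon share in polysomal RNA and a dashed line for all genes of each length class in total RNA. The polysomal median of genes with more than 20% of these codons goes from -0.10 in the shortest class to 0.71 at 3000 to 5000 bases, while the total RNA medians stay near 0.

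The same measures were taken per library by weighting each gene by its counts. The mean coding length behind a polysomal count was 1501, 1531, 1593 and 1516 bases in sgLUC replicates 1 to 4 and 1651, 1693, 1730 and 1725 bases in sgYBX1 replicates 1 to 4. The groups did not overlap, with means of 1535 ± 40.4 and 1700 ± 36.6 bases (SD, n = 4). The share of lysine and glutamate codons behind a count was 15.6% ± 0.171 with sgLUC and 16.6% ± 0.185 with sgYBX1 (n = 4). In total RNA the coding lengths were 1951 ± 5.61 and 1964 ± 15 bases (n = 4), and the codon shares were 14.3% in both groups. Coding length and codon share per library were chosen after the changes of single genes had been seen in the same libraries, and abundant genes such as PTMA weigh most in them, so they are given without a test and are no separate support. Cytosolic ribosomal protein genes took 13.8%, 12.7%, 11.4% and 13.3% of the polysomal counts in the sgLUC libraries and 10.5%, 10.6%, 9.57% and 9.62% in the sgYBX1 libraries. Their mean share was 12.8% ± 1.01 and 10.1% ± 0.549 (n = 4, exact permutation p = 0.0286), against 7.96% ± 0.129 and 7.21% ± 0.162 in total RNA (n = 4, exact permutation p = 0.0286). The ribosomal protein genes, too, were listed with earlier results of these data known, so these p-values are no independent support. Genes with more than 5000 coding bases took 3.30% ± 0.184 of the polysomal counts with sgLUC and 4.24% ± 0.210 with sgYBX1 (n = 4). The smallest p that 4 against 4 allows is 0.0286.

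**Figure D3:**
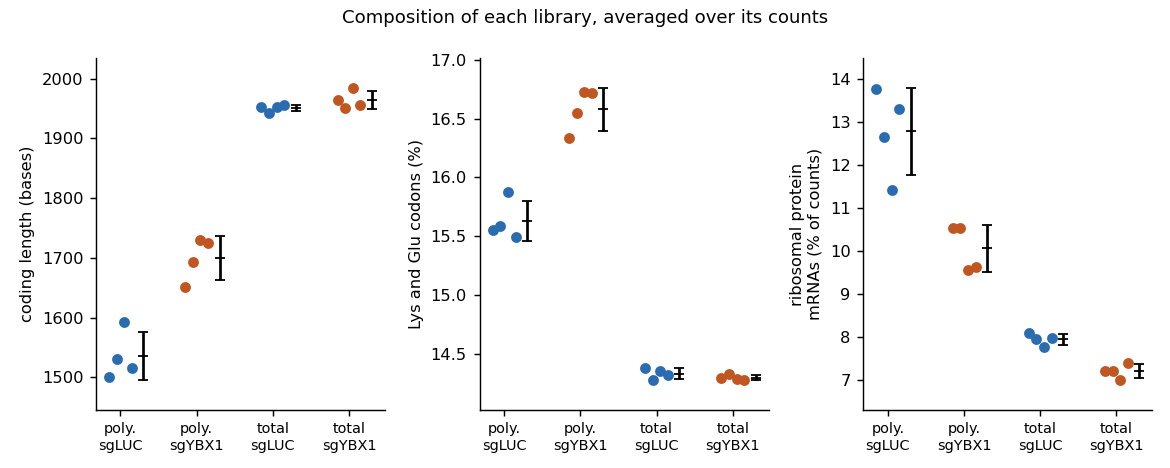
Count-weighted coding length in bases, count-weighted share of lysine and glutamate codons in percent and ribosomal protein share of counts in percent (y axes of the 3 panels) for each library of total and polysomal RNA with sgLUC or sgYBX1 (x axis), with points for libraries and bars for the mean ± SD of 4. The polysomal sgYBX1 libraries lie above all polysomal sgLUC libraries in length and codon share and below them in ribosomal protein share.

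Ribosomal protein mRNAs are short and abundant and carry an oligopyrimidine tract at their start, and 29 of the 79 tested fell in polysomal RNA. Of 32 tested proteins of the small subunit, 16 fell and 0 rose by the edgeR test, with a median log2 change of -0.31. Of 47 proteins of the large subunit, 13 fell and 1 rose, with a median of -0.20, beside 10.1% falls and 12.5% rises among all tested genes and a median of -0.02. In total RNA, 26 of 30 small subunit genes and 33 of 47 large subunit genes fell, with medians of -0.16 and -0.14, beside 9.15% falls among all genes tested there. The polysomal change lay below the total change by test in 9 small and 3 large subunit genes and above it in 3 of each. RPS16, a protein of the small subunit (chr19:39433137-39435949), stood at 2559, 2433, 2039 and 2439 CPM in the sgLUC libraries and at 1670, 1459, 1400 and 1365 CPM in the sgYBX1 libraries. The groups did not overlap, and the log2 change was -0.68 ± 0.12 (adjusted p = 0.000122). RPS3 and RPS20 fell by 0.50 and 0.43 on the log2 scale, and RPS15A, one of the small subunit genes that the study examined, changed by -0.62 ± 0.13 (adjusted p = 0.00091). RPS15 did not pass the test (-0.22 ± 0.12, adjusted p = 0.171).

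RPL30, which stood at 640, 447, 367 and 667 CPM in the sgLUC libraries and 286, 267, 242 and 244 CPM in the sgYBX1 libraries, had the largest fall among the large subunit genes, with a log2 change of -1.03 ± 0.15 (adjusted p = 2.44e-05). The sgLUC libraries spread widely and still all lay above the sgYBX1 libraries. RPL10A changed by -0.72 ± 0.13 and RPLP0, a stalk protein, by -0.51 ± 0.11. RPL4 and RPL6 did not pass the test, with -0.18 ± 0.12 (adjusted p = 0.284) and 0.21 ± 0.11 (adjusted p = 0.193). RPL36A was the member that rose (0.51 ± 0.14, adjusted p = 0.00789), but its libraries overlapped at 17.1 to 23.0 and 22.5 to 34.5 CPM and its call was lost without sgYBX1 replicate 4 (0.41, adjusted p = 0.066). Many of these genes have processed copies elsewhere in the genome, so their counts are uncertain in the same way as those of PTMA.

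The tract at the start is shown for genes that fell, since it is the element these mRNAs are known for. Each line gives the bases around an annotated RefSeq start on the strand of the gene in GRCh38.p14. The run of pyrimidines that begins at that start, a C followed by at least 4 pyrimidines, is in capitals. Only genes with such a tract were picked, and of several annotated starts the first with the tract was taken. The tract is thus present in every window by choice. The windows lie at chr19:39435930-39435959 (minus strand) for RPS16, chr3:39406710-39406739 (plus) for RPSA, chr12:120201092-120201121 (minus) for RPLP0, chr5:73498432-73498461 (plus) for BTF3, chr12:53006446-53006475 (plus) for EIF4B and chr11:7987327-7987356 (plus) for EIF3F.
RPS16: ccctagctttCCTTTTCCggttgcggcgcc
RPSA: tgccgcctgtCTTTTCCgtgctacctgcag
RPLP0: ggcgcgaggcCCTTCTCTCgccaggcgtcc
BTF3: cttccggcctCCCTTTagctgccatcttgc
EIF4B: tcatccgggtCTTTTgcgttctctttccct
EIF3F: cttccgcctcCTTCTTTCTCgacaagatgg
A tract of this form stood at an annotated start of 974 of 15115 genes in the RefSeq table (6.44%). It was found in 7.58% of the tested genes with an annotated start, in 10.7% of those that fell, in 6.43% of those that rose and in 7.36% of those that were not called. Without the ribosomal protein and respiratory genes, the shares were 9.09% of genes that fell and 6.37% of genes that rose. A match is a description of these letters, and the start used in MOLM13 cells was not measured.

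Other oligopyrimidine-tract mRNAs did not move as a block. Of 18, 4 fell and 3 rose, with a median of -0.15, beside 10.1% falls and 12.5% rises among all tested genes. BTF3, a subunit of the nascent polypeptide-associated complex, stood at 181, 129, 142 and 197 CPM against 106, 103, 96.7 and 89.8 CPM and changed by -0.71 ± 0.13 (adjusted p = 0.000195). NAP1L1, a histone chaperone, went the other way, from 1287, 1319, 1366 and 1170 CPM to 1984, 1759, 2096 and 2138 CPM (0.63 ± 0.11, adjusted p = 0.000205). The coding sequence of NAP1L1 holds 25.1% lysine and glutamate codons, and that of BTF3 holds 14.6%. EEF2, the elongation factor that moves the ribosome along the mRNA, did not pass the test (-0.28 ± 0.12, adjusted p = 0.101), and passed it when library totals were used (-0.44, adjusted p = 0.00442).

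Translation initiation factors changed in both directions, beside 12.5% rises and 10.1% falls among all tested genes. Of 37 tested, 10 fell and 7 rose, and EIF4A1 was not tested, since it is listed at 0 counts in every polysomal library. EIF4B, a cofactor of the helicase that unwinds mRNA leaders, stood at 371, 304, 320 and 380 CPM in the sgLUC libraries and at 203, 230, 251 and 216 CPM in the sgYBX1 libraries, a log2 change of -0.61 ± 0.12 (adjusted p = 0.0004). EIF3L, a subunit of the scaffold complex eIF3, fell from 242, 223, 202 and 251 CPM to 131, 152, 172 and 147 CPM (-0.61 ± 0.12, adjusted p = 0.000424), and EIF3F changed by -0.56 ± 0.11. Within the same complex EIF3A rose, from 1294, 1219, 1486 and 1071 CPM to 2098, 2131, 2530 and 2549 CPM (0.88 ± 0.12, adjusted p = 1.99e-05). EIF3J, which is loosely bound to it, rose by 0.88 ± 0.15 and EIF3D did not pass the test (-0.18 ± 0.11, adjusted p = 0.237). Subunits of 1 complex thus rose and fell side by side. The coding sequence of EIF3A is 4146 bases long with 19.2% lysine and glutamate codons, that of EIF3L is 1821 bases long with 13.0%, and that of EIF3F is 1071 bases long with 7.28%. EIF3J rose with 774 bases and 27.5%. EIF3E rose (0.35 ± 0.11, adjusted p = 0.0244) with 1335 bases and 12.6%, both below those of EIF3L. Its call was lost without sgLUC replicate 2 or sgYBX1 replicates 3 or 4 (adjusted p up to 0.090). Neither length nor codon share thus sorted all subunits by direction.

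Genes of the respiratory chain were lower where they changed. Of 35 tested subunits and assembly factors of complex I, 13 fell and 0 rose by the edgeR test (median -0.30), and of 37 of complexes III and IV and ATP synthase, 21 fell and 0 rose (median -0.37), beside 10.1% falls and 12.5% rises among all tested genes. COX7A2, a subunit of cytochrome c oxidase (chr6:75237675-75250298), stood at 76.2, 59.9, 49.0 and 75.8 CPM in the sgLUC libraries and at 36.7, 31.8, 25 and 23.2 CPM in the sgYBX1 libraries. It changed by -1.16 ± 0.15 (adjusted p = 7.64e-06) and was the member of these lists that fell furthest. CYC1, the cytochrome of complex III, fell from 192, 212, 162 and 228 CPM to 109, 113, 89.3 and 88.1 CPM (-0.99 ± 0.12, adjusted p = 5.87e-06), and COX5A changed by -0.96 ± 0.14. The complex I subunits NDUFB6, NDUFA9 and NDUFA8 changed by -0.75, -0.66 and -0.65. Mitochondrial ribosomal proteins, which make the mitochondrially encoded subunits, fell in 24 of 76 and rose in 4 (median -0.24), with MRPL13 at -0.69 ± 0.12.

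In the citric acid cycle, 7 of 21 genes fell and 0 rose by the edgeR test, beside 10.1% falls and 12.5% rises among all tested genes. IDH3B, a subunit of isocitrate dehydrogenase that the study followed (chr20:2658395-2664216), stood at 128, 126, 110 and 123 CPM against 87.5, 73.0, 66.2 and 65.7 CPM. The groups did not overlap, and the log2 change was -0.73 ± 0.12 (adjusted p = 6.62e-05). MDH2, mitochondrial malate dehydrogenase, changed by -0.72 ± 0.13 (adjusted p = 0.000146). Of 17 glycolytic genes, 8 fell and 0 rose (median -0.36), and all 17 had values below 0. ALDOA, the aldolase of glycolysis, stood at 1789, 2131, 1916 and 1935 CPM against 1430, 1137, 1085 and 1138 CPM (-0.70 ± 0.12, adjusted p = 0.000117). PGAM1, PGK1 and GAPDH changed by -0.69, -0.68 and -0.45. ENO1 changed by -0.36 ± 0.12 (adjusted p = 0.0237), and this call was lost without sgLUC replicates 2 or 4 (adjusted p = 0.061 and 0.070) and without sgYBX1 replicates 2, 3 or 4 (0.080, 0.103 and 0.102). Among the genes of the peroxiredoxin, thioredoxin and glutathione systems, 7 of 20 fell and 0 rose, with GPX1 at -0.79, PRDX3 at -0.84 and PRDX4 at -0.76.

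Chromatin regulators, large nuclear enzymes and their partners, rose. Of 50 tested, 31 rose and 0 fell by the edgeR test, and with library totals 26 rose and 1 fell. The median log2 change was 0.49, against 12.5% rises and a median of -0.02 over all tested genes. This list, like the others, was chosen with earlier results of these data known, so its counts are a description. Its median coding length was 5494.5 bases, and 32.3% of the tested genes over 5000 bases rose. The part of length in these counts was not tested. CHD7, a chromatin remodeler, stood at 175, 250, 261 and 174 CPM in the sgLUC libraries and at 391, 377, 461 and 430 CPM in the sgYBX1 libraries (0.95 ± 0.13, adjusted p = 2.31e-05). KMT2B, a histone methyltransferase, went from 69.5, 114, 120 and 84.0 CPM to 179, 158, 190 and 199 CPM (0.90 ± 0.14, adjusted p = 5.11e-05), and INO80, the core of another remodeler, rose by 0.71 ± 0.12. The coding sequences of CHD7 and KMT2B are 8991 and 8145 bases long with 15.3% and 11.7% lysine and glutamate codons, so their codon shares were near those of other genes. Among 20 acidic and high-mobility-group chromatin proteins, which are mostly small, 9 rose and 1 fell (median 0.33). CBX3, a heterochromatin protein with a coding sequence of 549 bases, of which 25.7% are such codons, rose from 917, 1071, 1136 and 811 CPM to 1818, 1851, 1974 and 2013 CPM (0.96 ± 0.12, adjusted p = 6.16e-06). CBX3 also has processed copies in the genome.

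Motor and long coiled-coil proteins rose as well, in 21 of 36 genes with 0 falls by the edgeR test and a median of 0.50 (16 rises and 0 falls with library totals). Among all tested genes, 12.5% rose and 10.1% fell, and among those with more than 5000 coding bases 32.3% rose. The median coding length of this list was 5746.5 bases, and it too was chosen with earlier results of these data known. GOLGA4, a Golgi tether (chr3:37243271-37366879), stood at 124, 137, 135 and 91.0 CPM against 200, 261, 250 and 248 CPM (0.98 ± 0.13, adjusted p = 1.07e-05). CCDC88A, an actin-binding coiled-coil protein, and EEA1, an endosome tether, rose by 0.86 ± 0.12 and 0.88 ± 0.13. These 3 genes have coding sequences of 6729, 5613 and 4233 bases with 29.2%, 22.9% and 26.8% lysine and glutamate codons.

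Ribosome biogenesis factors, which process pre-ribosomal RNA in the nucleolus, went against the ribosomal proteins, with 18 rises and 3 falls among 44 (median 0.27, and 12 rises and 8 falls with library totals). WDR43 stood at 223, 319, 313 and 206 CPM in the sgLUC libraries and at 445, 509, 530 and 546 CPM in the sgYBX1 libraries (0.94 ± 0.14, adjusted p = 2.57e-05). NOC3L and RRP15 rose by 0.86 ± 0.12 and 0.85 ± 0.12. DDX10, a nucleolar helicase, rose from 183, 206, 254 and 176 CPM to 388, 379, 449 and 436 CPM (1.01 ± 0.12, adjusted p = 5.05e-06). Among all 37 tested helicases of the DEAD and DEAH families, DDX10 and DDX21 included, 9 rose and 3 fell. Both lists stand beside 12.5% rises and 10.1% falls among all tested genes. In total RNA, 10 of 44 ribosome biogenesis factors rose and 0 fell by the edgeR test. Among all genes tested there, 7.62% rose and 9.15% fell.

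**Figure D4:**
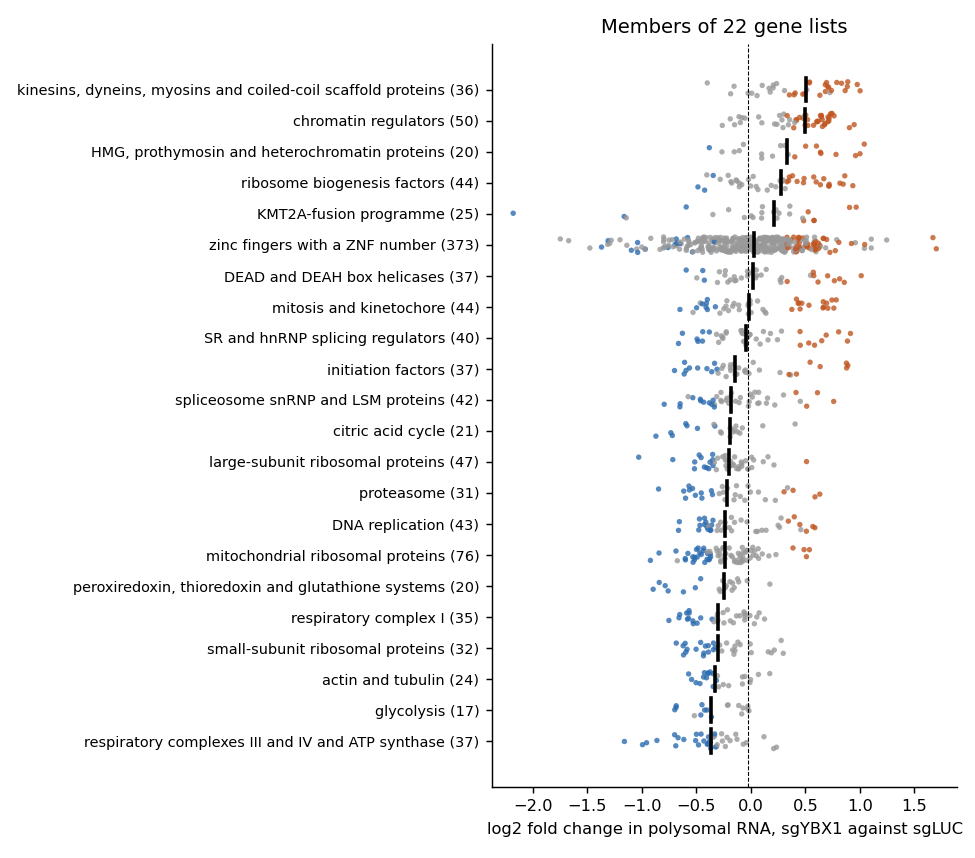
Log2 fold change of sgYBX1 against sgLUC in polysomal RNA (x axis) for each tested member of 22 gene lists (y axis), with a point for each gene, coloured where it rose or fell at an adjusted p under 0.05, and a bar at the median of the list and a dashed line at the median of all tested genes. Chromatin regulators (median 0.49) and motor and coiled-coil proteins (0.50) lie to the right of the median of all genes (-0.02), and respiratory complexes III and IV with ATP synthase (-0.37) and glycolysis (-0.36) lie to the left.

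Cell cycle genes changed in both directions, beside 12.5% rises and 10.1% falls among all tested genes. The 14.0% of DNA replication genes that rose were near that share. Of 43 DNA replication genes, 15 fell and 6 rose (median -0.24), and RRM2, the small subunit of ribonucleotide reductase, stood at 76.3, 46.0, 50.9 and 69.4 CPM against 38.5, 38.1, 40.7 and 35.9 CPM (-0.66 ± 0.14, adjusted p = 0.000832). Of 44 mitotic genes, 15 rose and 8 fell (median -0.02). The kinetochore genes NUF2 and KNL1 rose by 0.78 and 0.76 and the condensin subunit SMC4 by 0.74, while CCNB1, the cyclin of mitotic entry, changed by -0.65 ± 0.14 (adjusted p = 0.00159). In total RNA, 15 of 43 replication and 15 of 44 mitotic genes fell and 0 rose by the edgeR test. Among all genes tested there, 9.15% fell.

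Splicing, protein turnover and secretion had genes on both sides, beside 12.5% rises and 10.1% falls among all tested genes. Among 40 SR and hnRNP proteins, 9 rose and 7 fell, with RBM39 and SRSF11 at 0.91 and 0.81 and SRSF7 at -0.66, while the core proteins of the spliceosomal particles fell in 11 of 42 and rose in 4. In the proteasome 11 of 31 fell and 4 rose, and the large base subunit PSMD1 (0.63 ± 0.14) and the core subunit PSMA6 (-0.60 ± 0.13) went in opposite directions. The polyubiquitin gene UBB, whose repeats are shared with other ubiquitin genes and whose counts are uncertain, changed by -0.91 ± 0.13. In the translocation machinery of the endoplasmic reticulum 9 of 29 fell and 5 rose, with the signal recognition particle subunit SRP72 at 0.75 and the small channel subunit SEC61B at -0.63. Among its chaperones HSP90B1 rose by 0.67 ± 0.12. P4HB changed by -0.37 ± 0.11 (adjusted p = 0.0148), and this call was lost without sgLUC replicate 4 (adjusted p = 0.070), sgYBX1 replicate 2 (0.0505) or sgYBX1 replicate 4 (0.068).

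Genes of the actin and tubulin cytoskeleton fell in 13 of 24 with 0 rises by the edgeR test (median -0.33). Among all tested genes, 10.1% fell and 12.5% rose. TMSB4X, the actin-sequestering thymosin, stood at 1981, 1834, 1435 and 1738 CPM against 1175, 1422, 1098 and 1097 CPM (-0.54 ± 0.12, adjusted p = 0.00203). Its coding sequence of 132 bases holds 38.6% lysine and glutamate codons, so it fell with the short genes although its codon share was high. CORO1A, a leukocyte actin regulator, changed by -0.57 ± 0.12. PFN1 changed by -0.37 ± 0.12 (adjusted p = 0.0235), a call lost without sgLUC replicates 2 or 4 (adjusted p = 0.066 and 0.076) and without sgYBX1 replicates 2, 3 or 4 (0.078, 0.103 and 0.117). ACTB did not pass the test, with 9842 ± 959 and 9330 ± 660 CPM (SD, n = 4) and a log2 change of -0.08 ± 0.11 (adjusted p = 0.677), and it shares sequence with other actin genes and copies. In total RNA, 13 of 24 genes of this list fell and 0 rose by the edgeR test, beside 9.15% falls among all genes tested there.

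Myeloid genes were lower in several lists. LYZ, the lysozyme of monocytes and granulocytes (chr12:69348381-69354234), stood at 377, 333, 394 and 438 CPM in the sgLUC libraries and at 177, 200, 178 and 170 CPM in the sgYBX1 libraries. The log2 change was -1.09 ± 0.12 (adjusted p = 1.12e-06). Of 27 mature myeloid genes, 8 fell and 2 rose, and of 14 granule genes, 5 fell and 0 rose by the edgeR test. Among all tested genes, 10.1% fell and 12.5% rose. The calprotectin subunit S100A8 (chr1:153390032-153422583) fell from 10.1, 9.11, 8.64 and 8.76 CPM to 3.25, 2.84, 3.52 and 3.69 CPM (-1.46 ± 0.17, adjusted p = 3.94e-06), and its partner S100A9 changed by -2.40 ± 0.33 at 3.05 and 0.576 CPM. The granule proteins PRG2, MPO and EPX changed by -0.83, -0.68 and -1.40. MNDA, a nuclear antigen of myeloid cells (chr1:158831351-158849502), rose from 55.7, 52.6, 54.9 and 42.4 CPM to 95.5, 97.6, 99.99 and 105 CPM (0.95 ± 0.12, adjusted p = 4.76e-06). Myeloid transcription factors did not share a direction, with 4 falls and 3 rises among 20 and a median of -0.02. IRF8, a factor of the monocytic lineage, changed by -0.55 ± 0.12 (adjusted p = 0.00202). In total RNA, 11 of 26 mature myeloid genes fell and 2 rose, and 4 of 14 granule genes fell and 2 rose. Among all genes tested there, 9.15% fell and 7.62% rose.

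Among 25 genes of the KMT2A fusion programme, 6 rose and 3 fell in polysomal RNA, beside 12.5% and 10.1% of all tested genes, and 10 rose and 3 fell in total RNA, beside 7.62% and 9.15%. JMJD1C, a member of the histone demethylase family with a coding sequence of 7620 bases, stood at 247, 304, 227 and 173 CPM against 397, 492, 439 and 452 CPM (0.90 ± 0.14, adjusted p = 3.92e-05). CCNA1, cyclin A1, fell from 11.8, 8.88, 6.48 and 12 CPM to 5.00, 5.09, 3.64 and 3.71 CPM (-1.16 ± 0.20, adjusted p = 0.000114). The study names BCL2, an anti-apoptotic gene, among mRNAs changed after RNAi against YBX1, and reports no such finding with CRISPR. BCL2 stood here at 67.0, 51.9, 45.4 and 52.7 CPM against 50.5, 58.7, 66.1 and 57.0 CPM. The groups overlapped, and the log2 change was 0.10 ± 0.13 (adjusted p = 0.622), which became -0.07 with library totals. MCL1 did not pass the test either (-0.23 ± 0.13, adjusted p = 0.214), and passed it with library totals (-0.40, adjusted p = 0.036). Of the BCL2 family of 16, 5 fell and 2 rose, beside 10.1% falls and 12.5% rises among all tested genes. The pro-apoptotic BID and BCL2L11 changed by -0.65 and -0.77, and the anti-apoptotic BCL2A1 by 1.05 ± 0.23, from 2.32 to 4.82 CPM. The other rise was in HRK, which is also pro-apoptotic. Its call was lost on leaving out any 1 library (log2 changes of 1.59 to 2.06, adjusted p up to 0.156).

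MYC stood at 66.2, 62.1, 70.1 and 101 CPM in the sgLUC libraries and at 59.3, 61.3, 57.5 and 52.1 CPM in the sgYBX1 libraries. The groups came close without overlapping, and sgLUC replicate 4 lay far above all other libraries. The log2 change was -0.38 ± 0.13 (adjusted p = 0.0384). Without sgLUC replicate 4 it was -0.17 (adjusted p = 0.364), and the call was also lost without sgYBX1 replicate 1, 2, 3 or 4 (-0.39, -0.39, -0.38 and -0.33, adjusted p = 0.072, 0.080, 0.094 and 0.145). In total RNA MYC rose by 0.18 ± 0.03 (adjusted p = 0.00116), and the polysomal change lay 0.53 below the total change (adjusted p = 0.00158 by limma voom). Of 60 MYC-responsive genes, 15 rose and 11 fell in polysomal RNA, with a median log2 change of -0.11, beside 12.5% rises and 10.1% falls among all tested genes. Among the readers and writers of m6A and the IGF2BP proteins, which bind and stabilise mRNAs such as that of MYC, 3 of 16 rose and 1 fell. IGF2BP2 stood at 99.5, 110, 121 and 90.8 CPM against 138, 143, 165 and 153 CPM (0.51 ± 0.12, adjusted p = 0.00195).

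Within the cold-shock domain family, 5 of 8 genes passed the filter on low counts. Of these 2 fell, YBX1, which is the targeted gene, and YBX2, beside 10.1% falls among all tested genes. YBX2, a germ cell relative of YBX1, stood at 0.931, 1.18, 1.04 and 0.459 CPM against 0.206, 0.363, 0.252 and 0.186 CPM. The change of -1.82 ± 0.56 (adjusted p = 0.0184) rests on few counts, and the call was lost without sgLUC replicate 2 (adjusted p = 0.067) and without sgYBX1 replicates 1, 3 or 4 (0.055, 0.059 and 0.073).

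The largest changes were in genes of low or moderate level. SH2D4A, an SH2 domain adaptor, stood at 6.44, 8.19, 10.5 and 8.48 CPM in the sgLUC libraries and at 31.1, 32.7, 36.3 and 35.7 CPM in the sgYBX1 libraries, the largest rise with a mean of at least 5 CPM (2.01 ± 0.14, adjusted p = 4.11e-10). KCNMB3, a potassium channel subunit, rose from 10.1, 15.9, 17.2 and 12.9 CPM to 42.6, 45.8, 53.6 and 54.6 CPM (1.81 ± 0.15, adjusted p = 5.52e-09). CKB, brain-type creatine kinase, rose from 12.6, 12.9, 11.6 and 9.92 CPM to 37.0, 30.9, 27.8 and 31.0 CPM (1.43 ± 0.13, adjusted p = 8.8e-08). The groups stood far apart for these 3 genes. CLDN5, ERBB4, ZNF91, SV2A, WNT7B, NFIX, ZMAT1, IFI16 and CCR10 made up the rest of the 12 largest rises under the same limit and without overlap between groups, with log2 changes of 1.97, 1.83, 1.70, 1.57, 1.49, 1.40, 1.32, 1.29 and 1.20.

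Among the 12 largest falls with a mean of at least 5 CPM and no overlap between groups, EPHB3, an ephrin receptor (chr3:184561785-184582408), went from 8.79, 10.5, 11.3 and 9.65 CPM to 3.31, 4.27, 2.75 and 4.04 CPM (-1.48 ± 0.18, adjusted p = 4.76e-06). EEF1A2, an isoform of the elongation factor that brings tRNA to the ribosome, went from 26.2, 49.8, 46.8 and 40.1 CPM to 18.1, 15.2, 20.8 and 16.8 CPM (-1.20 ± 0.16, adjusted p = 8.56e-06). CHI3L1, NXT2, MPZL1 and ILK changed by -1.0, -1.16, -1.07 and -1.06. The other 6 were S100A8, EPX, CCNA1, COX7A2, LYZ and RPL30, described above. B2M, which is used as a control gene in many assays, changed by -0.68 ± 0.13 (adjusted p = 0.000587) in these libraries.

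**Figure D5:**
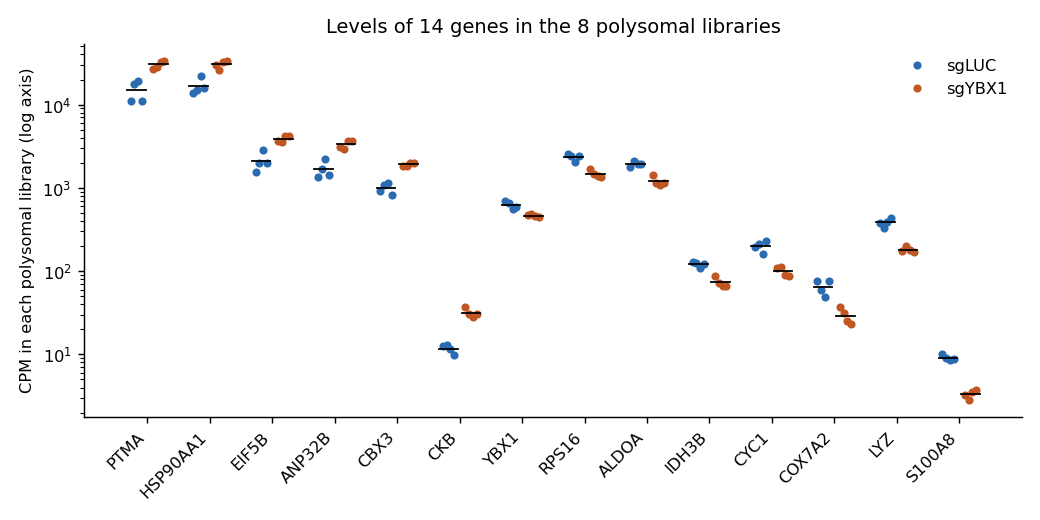
Level in CPM on a log axis (y axis) of 14 genes in each of the 4 sgLUC and 4 sgYBX1 polysomal libraries (x axis), with points for libraries and a bar for the mean. The sgYBX1 libraries lie above the sgLUC libraries for PTMA and below them for COX7A2 and LYZ.

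The changes in polysomal RNA were set beside those in total RNA, where 2048 of 12214 genes were called (16.8%), 931 as rises (7.62%) and 1117 as falls (9.15%). PTMA changed by 1.04 in polysomal RNA and by -0.13 ± 0.03 in total RNA, and HSP90AA1 and EIF5B, with 0.87 and 0.89 in polysomal RNA, had total changes of 0.08 ± 0.03 (adjusted p = 0.0912) and 0.02 ± 0.03 (adjusted p = 0.757). COX7A2, CYC1 and RPL30 had polysomal changes of -1.16, -0.99 and -1.03 and total changes of -0.09 (adjusted p = 0.074), 0.00 (adjusted p = 0.976) and -0.07 (adjusted p = 0.0876). RPL30 differs in this from most ribosomal protein genes, since 33 of 47 large and 26 of 30 small subunit genes fell in total RNA. For IDH3B and GAPDH the polysomal changes were -0.73 and -0.45 and the total changes -0.01 (adjusted p = 0.932) and -0.03 (adjusted p = 0.484). In other genes both fractions moved. LYZ changed by -1.09 and -0.80, S100A8 by -1.46 and -1.15, CKB by 1.43 and 1.68, EIF4B by -0.61 and -0.44, and EIF3L by -0.61 and -0.47, in polysomal and total RNA.

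The difference between the polysomal and the total change was tested by limma voom over all 16 libraries. It passed an adjusted p of 0.05 for 2133 of 12517 genes (17.0%), with the polysomal change higher in 1311 (10.5%) and lower in 822 (6.57%). This test uses the same polysomal libraries as the comparison above, so its calls are not a second source of support for it. It passed for PTMA, at 1.22 (adjusted p = 1.27e-07), and for COX7A2, at -1.06 (adjusted p = 3.07e-06). It did not pass for EIF4B, at -0.17 (adjusted p = 0.287), for EIF3L, at -0.14 (adjusted p = 0.401), or for LYZ, at -0.28 (adjusted p = 0.054).

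The calls were last set beside the dependency of MOLM13 cells on each gene, a gene effect score from a public CRISPR screen that the authors had added to their files, in which a gene below -0.5 was counted as a dependency. Of the genes that rose and had a score, 338 of 1418 were dependencies (23.8%), against 344 of 1168 that fell (29.5%) and 1340 of 8808 that were not called (15.2%). Called genes were also more abundant, with a median of 63.5 CPM for rises, 27.3 CPM for falls and 9.16 CPM for genes not called. Where the mean level was 5 CPM or more, the shares were 25.5%, 32.2% and 21.7%. These shares describe the genes and carry no test.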

How the data were processed

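The authors deposited raw read counts per gene for 16 libraries in 1 table of 18991 genes, of which 8 columns are polysomal libraries. Per the submitters' processing notes, the tools included featureCounts 2.0.1, STAR 2.7.8a, DESeq2 1.30.0 and Trimmomatic 0.36.5, and the build was GRCh38. The annotation, the strand setting and the treatment of reads that match several places are not given in the sources used here, so antisense, overlapping and copied genes cannot be told apart. Of the counts from 1 to 39 in the polysomal libraries, 60.8% were even. The symbol column of the table is not aligned with its rows, and the Entrez identifier was the key. This was checked against the deposited mean signal of a DESeq2 table (baseMean, r = 0.993 over 17521 genes by Entrez identifier). That table and the other deposited tables also hold fold changes and p-values of the authors' own comparisons, which were not used. A gene effect score was deposited beside the authors' list and copied from it. RefSeq symbols were found for 18963 identifiers, and the 28 others held 0.0029% of all counts.

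Genes were kept by filterByExpr over the 8 libraries. TMM factors and a quasi-likelihood fit with guide as the only term were used in edgeR 4.0.16 (R 4.3.3), two-sided, with Benjamini-Hochberg adjustment over all genes tested. limma 3.58.1 (voom with quality weights per group, 16 libraries) tested the polysomal minus the total change, and the fit was tested on simulated data. Total RNA was fitted in the same way as polysomal RNA on its own 8 libraries. The level of YBX1 and the ribosomal protein share per library were compared by exact two-sided permutation tests (SciPy 1.17.1). Lists were described by counts and medians only. Members and lists were chosen with earlier results of these data known. Named genes were YBX1, genes that the study names, the 12 highest and 12 lowest changes over 1.5-fold with a mean of at least 5 CPM and no overlap between groups, the 8 most abundant called genes in each direction with no overlap, and up to 3 called genes with the smallest adjusted p in each list and direction. CD3D and KRT18 were called but stand only among the cell type markers. A few genes that the rule names and 1 marker list are not reported here. Alternatives were other scalings and filters, DESeq2 1.42.0, voom, a replicate block, all 16 libraries, a stricter threshold and leaving out each library. Coding lengths and codons come from the longest coding sequence per gene in GENCODE v29, and starts from RefSeq. Figures were drawn with matplotlib 3.10.9. Of the genes tested, 11687 had a coding sequence and 9657 an annotated start.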

Additional observations from a re-analysis of the deposited data

Results flagged for a closer look

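The 254 groups of 4 libraries came from the genes named, HRK and EIF3E not counted, and from the measures taken per library. Among them, 8 held a library far from the other 3, where chance gives about 1 in 20. The sgYBX1 replicate 1 was high in 5 of these 8. It held 2114 CPM of PFN1 against 1583 to 1667 in the other 3, 3114 CPM of ENO1 against 2447 to 2515, 1430 CPM of ALDOA against 1085 to 1138, 91.5 CPM of PGK1 against 69.8 to 71.0, and 205 CPM of CORO1A against 176 to 180. Of these genes, 3 are glycolytic and 2 belong to the cytoskeleton list. The sgLUC replicate 2 was low for S100A9, at 2.11 CPM against 3.28 to 3.5, and for BID, at 38 CPM against 46.1 to 47.6. The sgLUC replicate 4 was low for INO80, at 48.8 CPM against 61.1 to 62.5.

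The limma voom test of the difference between the polysomal and the total log2 change was looked at for 19 genes. It passed for 13 of them, beside 17.0% of all 12517 genes tested. The 19 are genes named in the text rather than a sample of all genes. The polysomal change was the higher for IFI16 by 1.24, PTMA by 1.22, MNDA by 1.04, EIF5B by 0.90, HSP90AA1 by 0.81, IGF2BP2 by 0.44 and YBX1 by 0.34. The polysomal minus total change was -1.06 for COX7A2, -0.99 for CYC1, -0.92 for RPL30, -0.74 for IDH3B, -0.53 for MYC and -0.42 for GAPDH. Adjusted p lay between 1.17e-07 for MNDA and 0.00937 for YBX1. For BCL2, EIF4B, EIF3L, LYZ, CKB and S100A8 the difference did not pass the test.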

How the results depend on the processing

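The count of 2651 genes became 2620 with relative log expression factors, 3586 with library totals, 2693 without a filter, 2652 with a mean of at least 5 CPM, 2965 with DESeq2 and 3065 with voom. Fitting all 16 libraries gave 4639 calls (2154 higher, 2485 lower) of 12517 genes tested, and the cause was not tested. An adjusted p under 0.01 left 1541 (993 higher, 548 lower). Leaving out 1 library gave 1705 (without sgYBX1 replicate 4) to 2868 calls, with 599 (without sgLUC replicate 4) to 1354 falls, and 848 to 1367 over 1.5-fold, where the 1094 became 1404 with library totals. YBX1 kept its call throughout, with log2 changes of -0.60 to -0.36.

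Replicate numbers did not pair the libraries (correlations of same-numbered deviations between -0.035 and 0.036). A fit with the replicate block gave 2557 calls (1470 higher, 1087 lower), 1102 over 1.5-fold, and 2889 rather than 2133 for the polysomal minus total change. With the block MYC was no longer called (-0.35, adjusted p = 0.061). The latter difference gave 2095 calls by edgeR.

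Without any 1 library, the difference in ribosomal protein share was -3.17 to -2.40 percentage points, with an exact permutation p of 0.0571, the smallest that 3 against 4 allows. It was 153 to 184 bases in coding length and 0.905 to 1.04 percentage points in lysine and glutamate codon share. With other oligopyrimidine-tract genes added the ribosomal protein difference was -2.86. Spearman's correlation with coding length was 0.333 at 5 CPM or more and 0.259 with library totals, and with codon share 0.250 and 0.172, and 0.181 without the ribosomal protein and respiratory genes. The per-library coding length and codon share, the codon share across genes, their alternatives and leaving out those genes were all chosen after seeing the data.

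ACTB was -0.12 to 0.0013 without any 1 library, positive only without sgLUC replicate 1, and BCL2 was -0.0729 with library totals. Neither was called. With library totals, the medians of several lists changed sign, from 0.09 to -0.08 for aminoacyl-tRNA synthetases and from 0.03 to -0.13 for numbered zinc finger genes. Of 111 called genes named in the text, HRK and EIF3E not counted, 105 kept their call without any 1 library. Most of these genes were picked by adjusted p, size of change or level in the same libraries. Other called genes that the rule names and that are not reported here also lost their call. The share therefore does not describe all called genes, whose number went from 2651 to 1705 without sgYBX1 replicate 4. At about 1 CPM, as for YBX2, counts limit what can be called.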

Other observations

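Other groups of genes were also counted in polysomal RNA, where 12.5% of all tested genes rose and 10.1% fell. Of 26 genes of the mTORC1 pathway, 5 fell and 0 rose by the edgeR test, and LAMTOR1, a lysosomal anchor of that kinase complex, stood at 28.6, 35.8, 23.8 and 30.5 CPM with sgLUC and at 17.1, 16.9, 16.4 and 17.5 CPM with sgYBX1 (-0.81 ± 0.13, adjusted p = 7.61e-05). Of 16 subunits of the vacuolar proton pump, 5 fell and 1 rose. Of 20 aminoacyl-tRNA synthetases, 5 rose and 2 fell. Of 373 numbered zinc finger genes, 41 rose and 15 fell, near the 12.5% and 10.1% of all tested genes or below them. Of 19 histone genes, 3 fell and 1 rose, and H2AZ1, a variant of histone H2A, changed by -0.75 ± 0.14 (adjusted p = 0.000441). Of 19 interferon-response genes 1 rose and 0 fell, and of 26 genes of the integrated stress response 2 rose and 3 fell. The counts of these last lists were near the shares of all tested genes or below them.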
